A study of Mus musculus with 48 samples.

Results

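The 8 genes described here encode the pore-forming subunits of the AMPA-type glutamate receptor (*Gria1*, *Gria2*, *Gria3*, *Gria4*), a pair of its cornichon auxiliary subunits (*Cnih2*, *Cnih3*) and a pair of its scaffolds (*Grip1*, *Dlg4*). They were taken by symbol from both expression tables, and all 8 were listed among the 27086 genes of the B6 table and the 18943 genes of the *APOE*-TR table, with 16952 genes in both. RNA-seq of cerebral cortex was made from 48 mice in 12 groups of 4. C57BL/6J mice, labelled 4 months old and called B6, breathed control air or re-aerosolized nano-sized particulate matter (nPM) for 8 weeks. Mice labelled 6 months old, whose own *Apoe* gene was replaced by human *APOE3* or human *APOE4* (*APOE*-TR), did so for 15 weeks. In both experiments sessions lasted 5 hours on 3 days a week, and each genotype had control and nPM groups of females and of males. The B6 and *APOE*-TR mice were exposed at different times and their values stand in separate tables, so age, exposure time and table cannot be told apart from the difference between B6 and *APOE*-TR mice. RNA came from whole cortex, so fewer cells of a type and less RNA per cell cannot be told apart in any result that follows. Replicates are separate mice.

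AMPA receptors are tetramers of the Gria1 to Gria4 proteins and carry most fast excitatory transmission in the cortex. The Gria2 subunit sets their calcium permeability, because its mRNA is edited by the enzyme Adarb1 so that an arginine replaces a glutamine in the pore. Cornichon proteins slow the closing of the channel and help its export from the endoplasmic reticulum, Grip1 holds Gria2 and Gria3 through PDZ domains, and Dlg4, known as PSD-95, anchors the receptor complex in the postsynaptic density of excitatory synapses.

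The pore stretch around the edited codon is printed because it shows how alike the subunits are and what a count per gene leaves out. Each line ends at the end of the exon, and capitals mark the genomic glutamine codon at the edited position of Gria2 and the matching codon of the other subunits.
Gria1: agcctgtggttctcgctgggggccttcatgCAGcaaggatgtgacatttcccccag
Gria2: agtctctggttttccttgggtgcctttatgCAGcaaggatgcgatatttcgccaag
Gria3: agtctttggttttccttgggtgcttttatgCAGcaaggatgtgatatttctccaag
Gria4: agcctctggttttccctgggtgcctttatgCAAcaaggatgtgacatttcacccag
The stretches lie in GRCm38 at chr11:57243064-57243119 on the plus strand, chr3:80706888-80706943 on the minus strand, chrX:41610235-41610290 on the plus strand and chr9:4464114-4464169 on the minus strand. The codon is number 607 in Gria2, 600 in Gria1, 612 in Gria3 and 608 in Gria4, counted from the start codon of the longest principal GENCODE transcript, and it lies in a coding exon, exon 11 of 16 in Gria1, Gria2 and Gria3 and exon 12 of 17 in Gria4. *Gria2* and *Gria3* shared 52 of the 56 bases printed, and *Gria1* shared 45 with each of them. Over the whole coding sequence the identity of the subunits lay between 71.2% and 73.9%. Of all 50-base stretches in the transcripts of the 8 genes, *Gria2* and *Gria3* shared 7, *Gria2* and *Gria4* shared 6, *Gria3* and *Gria4* shared 3, and no other pair shared one, so few stretches of that length are common to members. In the *APOE*-TR table, on mm10 (the build of GRCm38), the genes span chr11:57011618-57330245 (*Gria1*), chr3:80684936-80802792 (*Gria2*), chrX:41401301-41678602 (*Gria3*), chr9:4417893-4796235 (*Gria4*), chr19:5092868-5098522 (*Cnih2*), chr1:181352628-181460642 (*Cnih3*), chr10:119454034-120087261 (*Grip1*) and chr11:70018605-70045533 (*Dlg4*). The tables count reads per gene, and the edited share of *Gria2* mRNA was not analysed here.

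Depth and base composition differed between libraries and are given first. Several results moved when base composition, as the GC slope described below, entered the fit, and the part of depth was not tested. The estimated depth was 17.8 to 22.3 M reads in *APOE*-TR females, 22.4 to 31.3 M in *APOE*-TR males, 4.80 to 24.4 M in B6 females and 2.05 to 17.2 M in B6 males. All 48 mice had more *Xist* than *Ddx3y* RNA if labelled female and less if labelled male. For each mouse a GC slope was computed, the change in log2 level, relative to the mean of its table, for every 10 percentage points of GC content over the transcripts of 10609 genes (B6) or 10578 genes (*APOE*-TR). This slope lay between -0.534 and 0.0855 in B6 females and between 0.0326 and 0.466 in B6 males. In *APOE*-TR mice it lay between -0.276 and 0.204 except in the APOE3 female controls 61 and F6, at -0.888 and -0.637. Those same 2 mice had the lowest slopes on transcript length, -0.802 and -0.587 log2 per doubling, and the calls of the 8 members are also given without them. The 8 genes span much of the GC range: the longest principal transcript is 36.8% G or C in *Gria2*, 42.99% in *Gria3*, 44.0% in *Gria4*, 48.6% in *Gria1*, 52.8% in *Grip1*, 53.3% in *Cnih3*, 57.9% in *Dlg4* and 62.3% in *Cnih2*. Summed levels of 7 markers each showed neurons in every library (4593 to 7510 CPM in *APOE*-TR, 2375 to 6488 CPM in B6), while markers of the striatum ranged from 242 to 1208 CPM in *APOE*-TR and from 80.5 to 1272 CPM in B6. Their part in the results was not tested.

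All 8 genes were expressed in all 48 mice. Levels are given in the deposited unit, CPM (reads of a gene scaled to the size of its library), and, to compare genes, in CPM per kilobase of the longest principal transcript. By that length, *Dlg4* was highest in the 32 *APOE*-TR mice, with a median of 105 CPM per kb. It was above *Cnih2* (55.3 CPM per kb) in 30 of 32 mice. *Cnih2*, *Gria2* (49.8 CPM per kb) and *Gria1* (49.4 CPM per kb) were not separated. *Cnih2* was above *Gria2* in 20 of 32 mice and *Gria2* above *Gria1* in 17. The length of *Gria2*, 10371 bases, was the same for both tables. Its entry on the minus strand begins at 80684936 in the *APOE*-TR table and at 80681450 in the B6 table, so its 3' end is shorter in the former. The part of this in the *Gria2* level was not tested. *Gria3* followed at 44.1 CPM per kb and was below *Gria1* in 26 of 32 mice. *Cnih3* (20.1 CPM per kb) and *Gria4* (17.6 CPM per kb) came next, with *Cnih3* the higher in 29 of 32 mice, and *Grip1* was lowest at 3.49 CPM per kb. In the 16 B6 mice the scaffold *Dlg4* (71.6 CPM per kb) and *Cnih2* (64.5 CPM per kb) again led and *Grip1* (1.10 CPM per kb) was again last, but *Gria1* (40.6 CPM per kb) was above *Gria2* (11.04 CPM per kb) by the median. The place of *Dlg4* depended on the length used, 3488 bases here against 12013 for all its exons together. Per kb of all exons its median was 30.6 CPM in *APOE*-TR mice, below *Cnih2* (55.3), *Gria2* (49.3), *Gria1* (46.1) and *Gria3* (42.1). In B6 mice that median was 20.8, below *Cnih2* (64.5) and *Gria1* (37.9). The tables list different sets of genes, so levels are not compared between them.

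Across the 8 *APOE*-TR groups the mean level varied least in *Cnih3*, by 1.12 times between its lowest and highest group, and in *Gria4*, by 1.16 times. It varied by 1.21 times in *Gria2*, 1.28 in *Dlg4*, 1.31 in *Gria3*, 1.44 in *Grip1* and 1.51 in *Gria1*, and most in *Cnih2*, by 1.66 times, from 61.7 CPM in APOE3 male controls to 102.5 CPM in APOE3 female controls. In the 4 B6 groups it varied from 1.24 times in *Gria4* to 2.95 times in *Cnih2*, more than in *APOE*-TR for all members except *Gria1*, at 1.44 times.

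Subunit shares rest on the same transcript lengths in both tables, although the *Gria2* entry is shorter at its 3' end in the *APOE*-TR table. Among the 4 subunits, each share of the summed CPM per kb was steady across 7 of the 8 *APOE*-TR groups. *Gria1* took between 29.6% and 31.96% there, *Gria2* between 30.2% and 31.3%, *Gria3* between 26.9% and 28.0% and *Gria4* between 9.84% and 11.6% (group means). APOE3 female controls differed, with 26.03% ± 7.05 for *Gria1* and 37.0% ± 5.50 for *Gria2* (SD, n = 4), and this group holds mice 61 and F6. In B6 mice the shares went with sex: *Gria2* took 20.8% ± 2.30 in female controls and 10.9% ± 1.04 in male controls, and *Gria1* took 37.2% ± 2.43 and 61.5% ± 6.15 (SD, n = 4). The GC slopes of these controls did not overlap either, at -0.534 to -0.290 in females and 0.0326 to 0.396 in males. *Gria2* is the member with the lowest GC content. Sex and base composition therefore cannot be told apart in these shares.

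**Figure D1:**
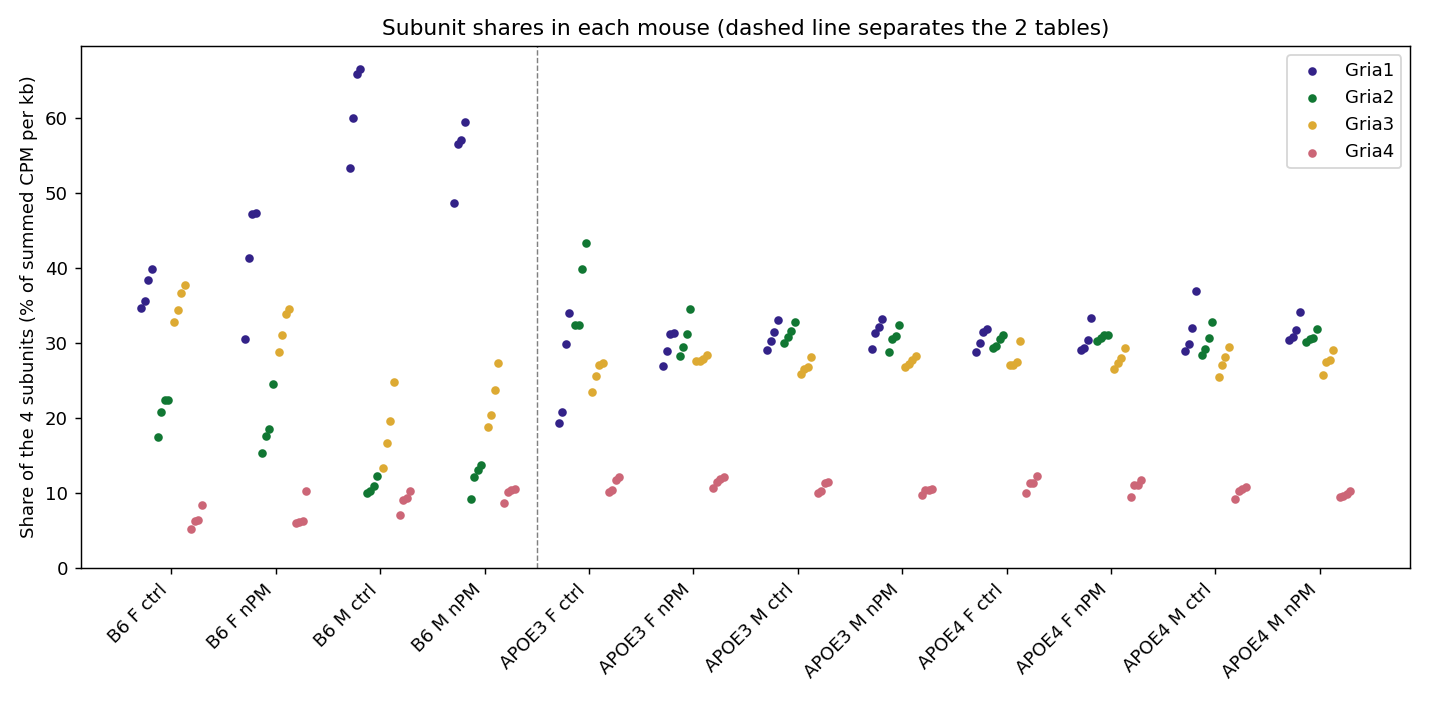
Share of each AMPA receptor subunit in the summed CPM per kb of the 4 subunits (y axis, %), one point per mouse, in the 12 groups (x axis), with B6 groups left of the dashed line. *Gria2* was at 37.0% on average in APOE3 female controls and between 30.2% and 31.3% in the other *APOE*-TR groups, and B6 males had less *Gria2* and more *Gria1* than B6 females. Among B6 controls, sex and the GC slope cannot be told apart.

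**Figure D2:**
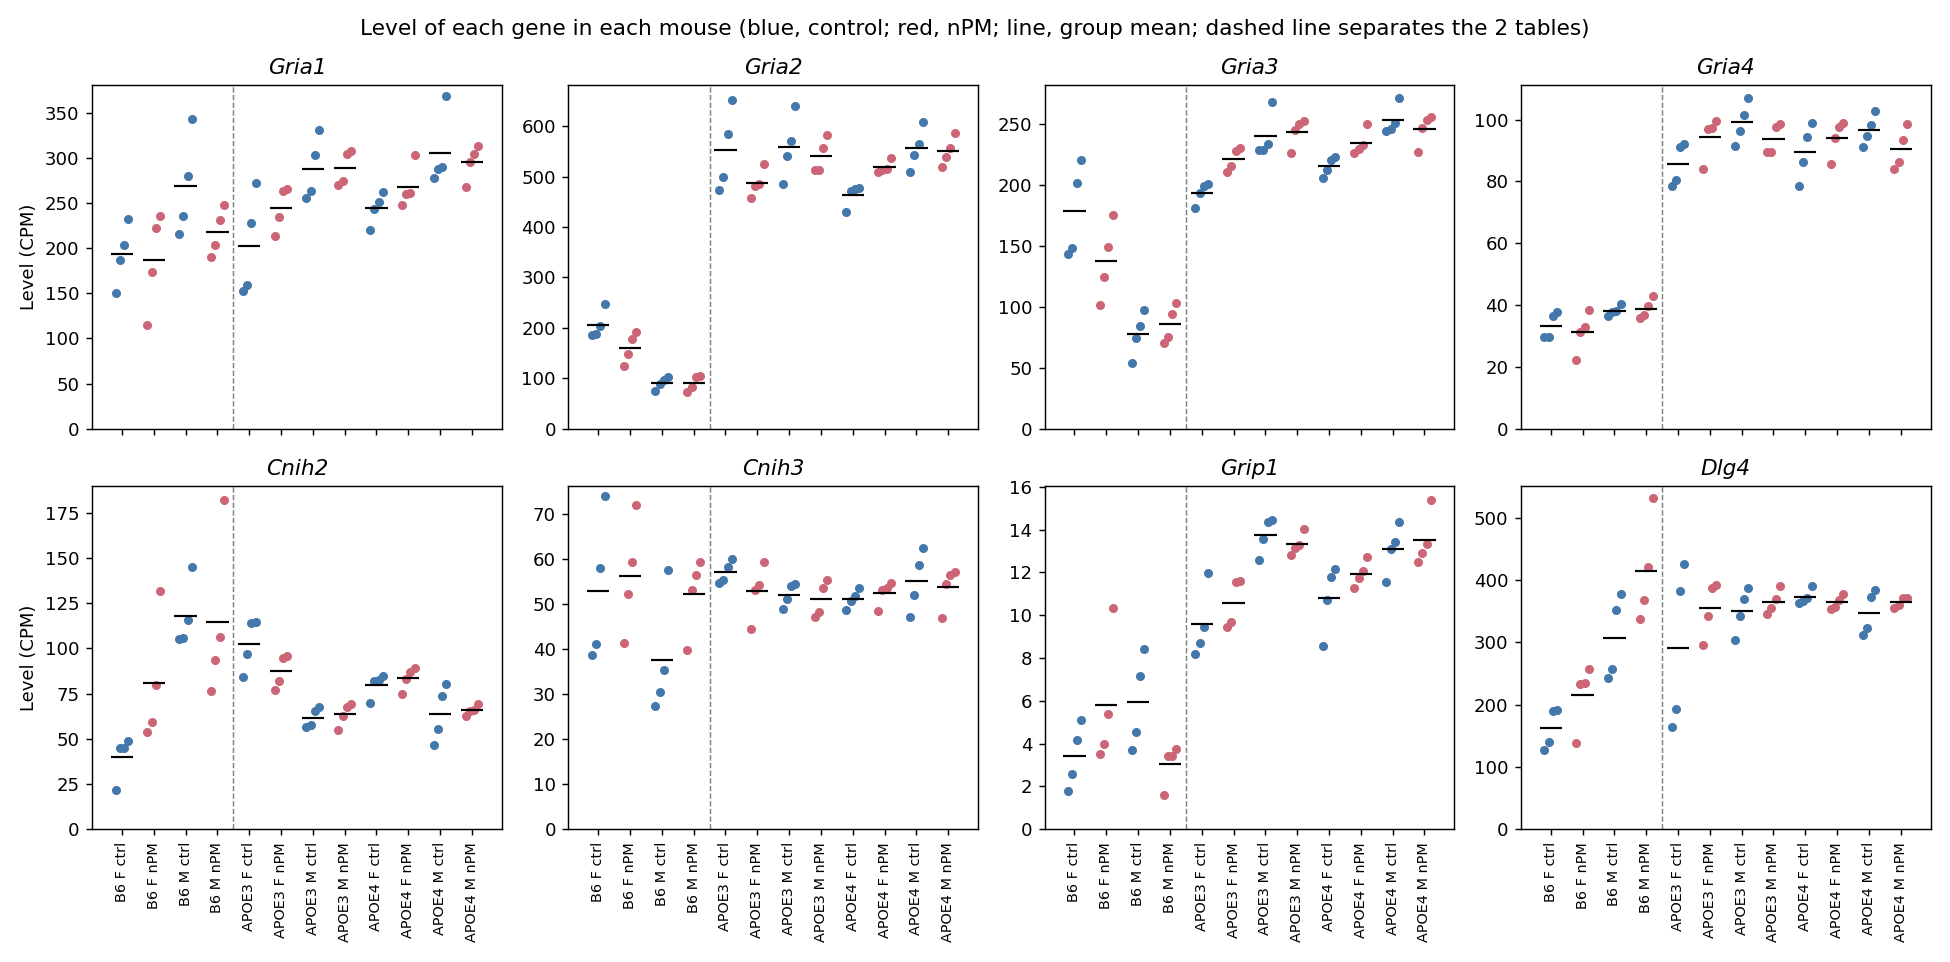
Level of each of the 8 genes (y axis, CPM, from 0) in each mouse of the 12 groups (x axis), with controls in blue, nPM in red and the group mean as a line. *Gria2* and *Gria3* were lower and *Cnih2* and *Dlg4* higher in B6 male than in B6 female controls, and mice 61 and F6 form the low pair of *Dlg4* points, at 164 and 192 CPM, among APOE3 female controls.

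Whether nPM changed the members was asked first over all mice and then in each sex and genotype. A gene was called at an unadjusted p under 0.005 in limma. Over all 48 mice, with sex and genotype in the model, none of the 8 members was called, beside 1.49% of the 11087 genes tested. The largest difference was in *Dlg4*, 0.22 ± 0.10 log2 higher with nPM (SE, n = 48; limma p = 0.034, adjusted p = 0.325). It was 0.16 (adjusted p = 0.784) without mice 61 and F6, with 0 of 8 members called, and 0.01 (adjusted p = 0.961) with the GC slope of each mouse as a covariate. The other 7 members lay between -0.08 and 0.14 log2, and the widest 95% interval among the 8, that of *Cnih2*, ran from -0.16 to 0.43. At an unadjusted p under 0.05, 1 of the 8 members passed, and of all genes tested 1604 did (14.5%), of which none passed a 5% false discovery rate.

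In the 6 separate comparisons of 4 nPM with 4 control mice, 1 of 48 tests of a member passed a p of 0.005 and 6 passed 0.05. Of all genes, 10.4% passed 0.05 in B6 females (2 members), 4.35% in B6 males (1), 21% in APOE3 females (1), 2.24% in APOE3 males (0), 5.56% in APOE4 females (2) and 4.19% in APOE4 males (0). The called members, with the share of all genes called, were 1 of 8 in B6 females (1.19%), 0 in B6 males (0.24%), 0 in APOE3 females (0.671%), 0 in APOE3 males (0.154%), 0 in APOE4 females (0.266%) and 0 in APOE4 males (0.178%). Groups of 4 that did not overlap, which give the smallest two-sided p of the exact permutation test, 0.0286, were found for 1 member in B6 females (6.41% of all genes), 1 in B6 males (2.21%), 1 in APOE3 females (6.81%), 0 in APOE3 males (1.46%), 2 in APOE4 females (3.45%) and 0 in APOE4 males (2.45%).

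**Figure D3:**
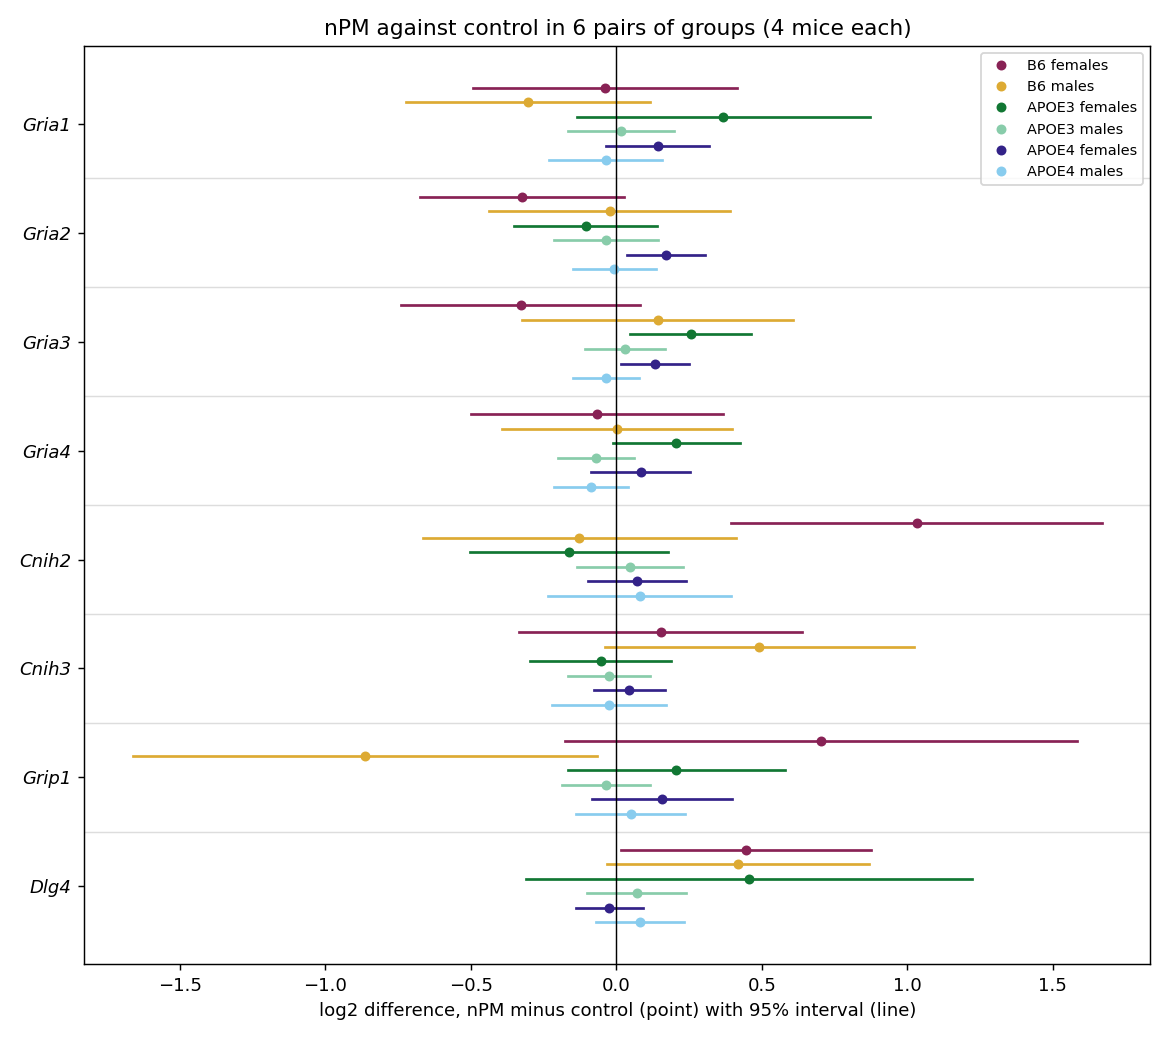
Difference between nPM and control mice in log2 level (x axis; point, limma estimate; line, 95% interval) for the 8 genes (y axis) in 6 pairs of groups of 4 mice. The points farthest from 0 are in B6 mice, *Cnih2* at 1.03 in females and *Grip1* at -0.86 in males, and the intervals of APOE3 males reach at most 0.24 from 0.

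The called member was *Cnih2*, the cornichon most studied in cortex and hippocampus. B6 female controls had 44.7, 44.9, 21.6 and 48.9 CPM, and B6 females given nPM had 59.6, 53.7, 131.5 and 79.8 CPM. Every nPM mouse was above every control, with mouse 52 far above the rest of its group. The difference was 1.03 ± 0.30 log2 (SE, n = 4 each; limma p = 0.0038, adjusted p = 0.388; exact permutation p = 0.0286). It missed the threshold when control 40, 41 or 42 or nPM mouse 52 or 53 was left out, at 0.76 to 1.11 log2. In the same mice the GC slope was also higher with nPM, -0.346 to 0.0855 against -0.534 to -0.290, and mouse 52 had the highest slope of the 8. Genes with transcripts of at least 60% GC, the class of *Cnih2*, had a median difference of 0.38 log2 in this comparison (603 genes), and genes under 40% GC, the class of *Gria2*, had a median of -0.26 (671 genes). With the GC slope as a covariate *Cnih2* differed by 0.12 ± 0.36 log2 (SE; limma adjusted p = 0.949) and no member was called. Summed markers of excitatory neurons were 1016 to 1204 CPM in the controls and 783 to 1377 CPM with nPM, and those of astrocytes, which did not overlap, were 3349 to 3744 CPM and 2684 to 3226 CPM. Their part was not tested. In no other pair of groups did *Cnih2* come near this size, its differences lying between -0.16 and 0.08 log2 in the 4 *APOE*-TR comparisons and at -0.13 in B6 males.

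*Dlg4* had a higher mean with nPM in every pair of groups except APOE4 females, without being called in any. Its control values in B6 females were 190.5, 189.8, 126.7 and 139.8 CPM and its nPM values 138.3, 233.4, 234.9 and 257.2 CPM, with the groups overlapping through mouse 50 (difference 0.45 ± 0.20 log2, SE; limma adjusted p = 0.470; exact permutation p = 0.143). Without mouse 50 the difference was 0.64 and *Dlg4* passed the threshold in limma. With the GC slope as a covariate it was 0.00 log2 (adjusted p = 0.999). In B6 males the difference was 0.42 ± 0.21 log2 (SE; exact permutation p = 0.143). In APOE3 females, whose controls include mice 61 and F6, *Dlg4* means were 291.1 CPM in controls and 354.2 CPM with nPM. That difference lay between 0.20 and 0.69 log2 over the 8 fits that left out 1 mouse. The means were 350.3 and 364.8 CPM in APOE3 males, 347.6 and 364.5 in APOE4 males, and 372.7 and 364.1 in APOE4 females.

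*Cnih3*, the other cornichon, was not called either. In B6 males it was at 30.4, 35.3, 57.4 and 27.4 CPM in controls and at 39.7, 56.3, 53.1 and 59.2 CPM with nPM, so the groups overlapped through control 3 (difference 0.49 ± 0.25 log2, SE; exact permutation p = 0.114). In the other 5 pairs its differences lay between -0.05 and 0.15 log2.

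*Grip1*, the member with the fewest reads, was lower with nPM in B6 males without being called. Controls had 8.43, 3.71, 7.14 and 4.56 CPM and nPM mice 1.58, 3.43, 3.77 and 3.44 CPM, values that rest on 17 to 199 estimated reads a mouse among controls and 25 to 72 with nPM. On the scaled log2 levels used for the test the groups did not overlap, although on the deposited CPM one nPM mouse, at 3.77, was just above the lowest control (difference -0.86 ± 0.37 log2, SE, n = 4 each; limma p = 0.036, adjusted p = 0.999; exact permutation p = 0.0286). B6 females differed the other way, by 0.70 ± 0.41 log2 (SE; exact permutation p = 0.200), with controls from 1.79 to 5.09 CPM and nPM mice from 3.53 to 10.3 CPM. The test of the sex difference in the nPM response, averaged over the 3 genotypes, called *Grip1* and no other member, 1 of 8 beside 1.98% of all genes. The response of females was 0.64 ± 0.20 log2 above that of males (SE, n = 48; limma p = 0.0031, adjusted p = 0.223). B6 mice alone gave 1.58 (n = 16; p = 0.010) and *APOE*-TR mice alone 0.17 (n = 32; p = 0.120). The averaged value was 0.59 (adjusted p = 0.828) without mice 61 and F6 and 0.62 (adjusted p = 0.889) with the GC slope as a covariate, neither past the threshold. It also missed the threshold in 7 of the 48 fits that left out 1 mouse, at 0.54 to 0.61.

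In *APOE*-TR females control and nPM groups did not overlap for *Gria3* in either line and for *Gria2* in APOE4. APOE3 female controls had 181.2, 193.0, 200.5 and 199.0 CPM of *Gria3*, and nPM mice 210.0, 227.9, 230.1 and 215.3 CPM. All 4 nPM mice were above all 4 controls (difference 0.25 ± 0.09 log2, SE; limma p = 0.023, adjusted p = 0.230; exact permutation p = 0.0286). In APOE4 females the controls had 205.6, 222.3, 211.9 and 220.3 CPM and the nPM mice 232.3, 249.9, 225.6 and 229.1 CPM, again without overlap (difference 0.13 ± 0.05 log2, SE; limma adjusted p = 0.754; exact permutation p = 0.0286). *Gria2* in the same APOE4 females was at 471.5, 430.1, 477.5 and 476.1 CPM in controls and at 537.8, 514.7, 512.8 and 508.8 CPM with nPM, also without overlap (difference 0.17 ± 0.06 log2, SE; limma adjusted p = 0.754; exact permutation p = 0.0286). None of these 3 differences reached the threshold of 0.005 in limma, and with the GC slope as a covariate they were 0.19, 0.12 and 0.16 log2. DESeq2 on recovered reads put *Gria3* in APOE3 females and *Gria2* in APOE4 females past it, at 0.25 and 0.17 log2. There it called 467 and 85 of all genes, in place of 110 and 44 in limma. Leaving out mice 61 and F6, *Gria3* in APOE3 females differed by 0.23 log2 (limma adjusted p = 0.908), and none of the 8 members was called. Summed markers of excitatory neurons were 1091 to 1655 CPM in APOE3 female controls and 1440 to 1975 CPM with nPM. In the same mice microglial markers (339 to 464 CPM in controls, 247 to 335 CPM with nPM) and markers of inhibitory neurons (707 to 892 CPM and 606 to 693 CPM) did not overlap. The excitatory sums were 1554 to 1995 and 1584 to 1864 CPM in APOE4 females. The part of these cells was not tested.

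In males of the same lines the groups overlapped for all 8 members. *Gria3* differed by 0.03 ± 0.06 log2 in APOE3 males and by -0.04 ± 0.05 in APOE4 males (SE, n = 4 each), and all 8 members lay between -0.09 and 0.08 log2 in both lines. The sex difference of the nPM response within the *APOE*-TR mice, a test added after these values were seen, was 0.20 ± 0.06 log2 for *Gria3* (SE, n = 32; limma p = 0.0035, adjusted p = 0.259) and 0.22 ± 0.07 for *Gria4* (p = 0.0058). *Gria3* was the 1 member of 8 past 0.005, beside 1.25% of the 15415 genes tested. Once mice 61 and F6 were left out, the values were 0.18 for *Gria3*, past the threshold no longer, and 0.25 for *Gria4*, now past it (n = 30; p = 0.0062 and 0.0023). With the GC slope as a covariate both passed, at 0.19 and 0.23 (n = 32, limma p = 0.0028 and 0.0036). Of all genes, 97 passed without the 2 mice and 175 with the covariate, beside 193 with neither change. In B6 mice *Gria3* was at -0.45 ± 0.29 log2 (SE, n = 16; limma p = 0.135), and 0 of the 8 members were called beside 0.892% of genes. Over all 48 mice the *Gria3* value was -0.05 (n = 48; p = 0.675).

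The comparison of alleles asked whether the members differed between *APOE4* and *APOE3* mice of one sex and exposure, with a call at a 5% false discovery rate. None of the 8 members was called in control females (0.231% of all genes called), nPM females (0.145%), control males (0.439%), nPM males (0.498%) or over all mice (0.37%). At an unadjusted p under 0.05, 1 of the 32 tests within sex and exposure passed, in control females, where 41.1% of all genes did, beside 9.12% in nPM females, 5.81% in control males and 9.89% in nPM males. In males the differences lay between -0.06 and 0.09 log2 among controls, with 95% intervals reaching at most 0.36 from 0, and between -0.05 and 0.08 with nPM, with intervals reaching at most 0.24. In nPM females they lay between -0.04 and 0.19 log2.

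**Figure D4:**
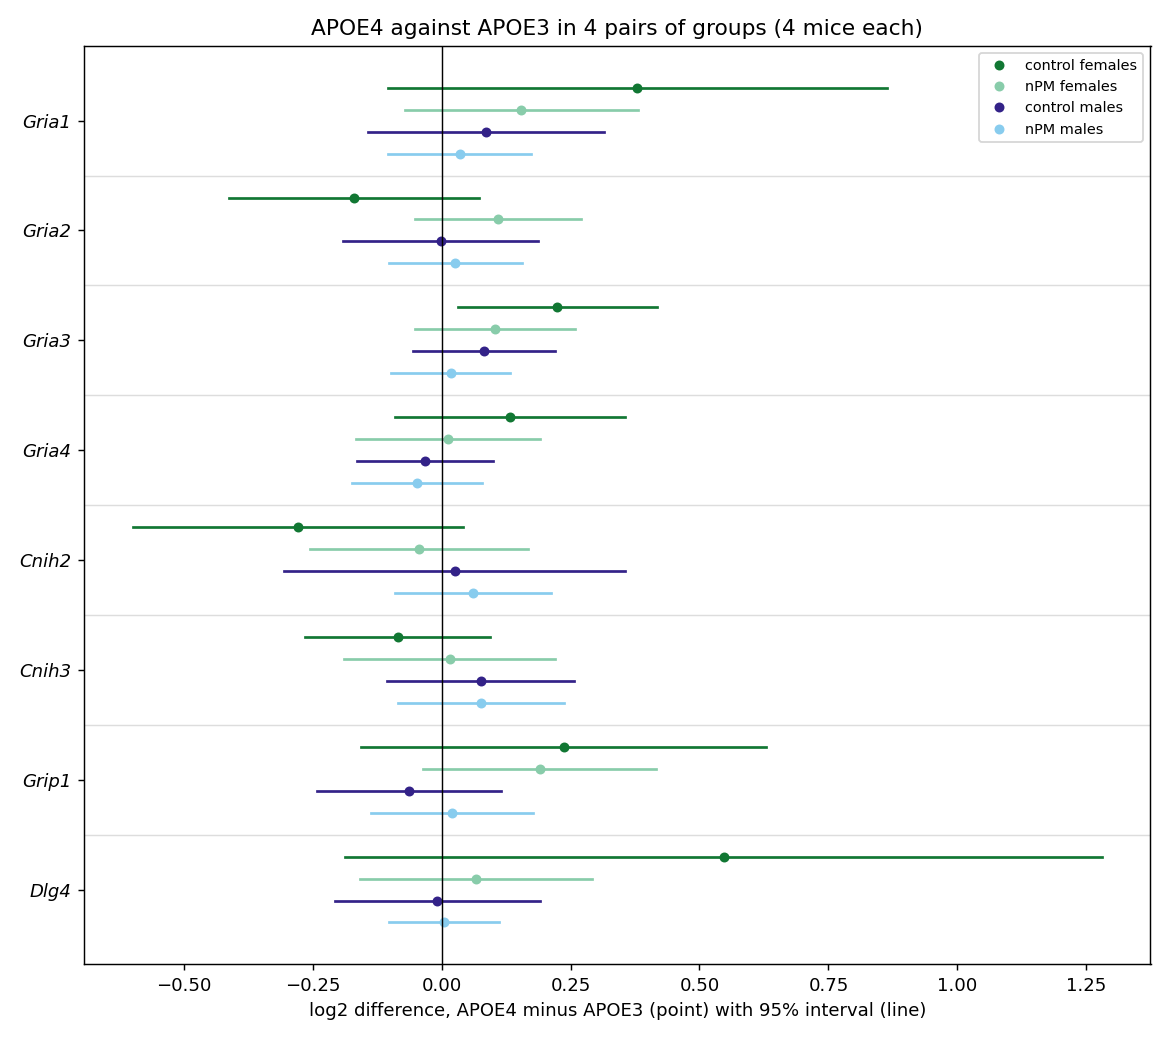
Difference between APOE4 and APOE3 mice in log2 level (x axis; point, limma estimate; line, 95% interval) for the 8 genes (y axis) in 4 pairs of groups of 4 mice. The widest interval is that of *Dlg4* in control females, at 0.55, and the intervals of nPM males all lie within 0.24 of 0.

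Among control females, mice 61 and F6 differed most from the rest in *Dlg4*. It was at 164.4 and 192.3 CPM in those mice and at 382.8 and 425.0 CPM in the other APOE3 female controls, mice 52 and 63, against 363.3 to 390.2 CPM in APOE4 female controls. *Gria1* was at 152.2 and 159.0 CPM against 272.3 and 228.1 CPM in mice 52 and 63, while *Gria2*, the member with the lowest GC content, was higher in mice 61 and F6, at 653.1 and 583.9 CPM against 498.5 and 474.4 CPM. Over all genes of at least 5 CPM, those with at least 60% GC were a median of 0.56 log2 lower in mice 61 and F6 than in 52 and 63, and those under 40% GC were 0.57 log2 higher. These CPM values and medians are on the deposited scale, without TMM. On that scale all listed genes summed to 880442 and 792914 CPM in mice 61 and F6. The sums were 704497 and 733464 CPM in mice 52 and 63. The part of this difference in scale was not tested. With all mice kept, *Dlg4* differed between alleles by 0.55 ± 0.32 log2 (SE; limma adjusted p = 0.222) and *Gria3* by 0.22 ± 0.08 (adjusted p = 0.0913; exact permutation p = 0.0286). *Gria3* was the 1 member whose groups did not overlap, where 29.1% of all genes did not; the shares in nPM females, control males and nPM males, 5.82%, 3.74% and 5.76%, stood beside 0 members each.

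Without mice 61 and F6 the picture for *Cnih2* changed. The remaining APOE3 female controls had 114.6 and 114.1 CPM and the APOE4 female controls 85.02, 82.77, 70.01 and 81.85 CPM. *Cnih2* was then lower in APOE4 by 0.50 ± 0.09 log2 (limma coefficient -0.50, SE 0.09; adjusted p = 0.0397, n = 2 and 4), which passed the threshold. The share of all genes called in that fit is not reported here. Of the gene lists described below, 1 of 27 receptor partners passed there. So did 2 of 13 postsynaptic density genes and 1 of 13 other ionotropic glutamate receptor genes. With the GC slope as a covariate and all 8 mice *Cnih2* was at -0.55 (adjusted p = 0.176). Without the covariate and with all 8 mice it was -0.28 ± 0.14 (adjusted p = 0.163), mice 61 and F6 having 97.1 and 84.4 CPM. The other *APOE*-TR pairs did not have this difference, with -0.04 in nPM females, 0.02 in control males and 0.06 in nPM males. *Dlg4* was at -0.09 log2 (adjusted p = 0.538) without the 2 mice, so that the sign of its allele difference changed.

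No member's nPM response passed the test of a difference between alleles. Averaged over the sexes, 0 of 8 were called beside 0.726% of the 15971 genes tested, and the differences of the response, APOE4 minus APOE3, lay between -0.23 for *Dlg4* and 0.15 for *Gria2* on the log2 scale. The 95% interval of *Gria2* ran from -0.01 to 0.32 (n = 32; limma p = 0.062). With mice 61 and F6 left out, *Gria2* and *Dlg4* were both at 0.09 and again none was called. The allele comparison over all mice also had 0 members without them.

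The difference farthest from 0 in any comparison was that of *Cnih2* between the sexes in B6 controls, a comparison added after the levels were seen. In B6 controls *Gria2* was at 186 to 247 CPM in females and 75.4 to 102.5 CPM in males. *Gria3*, which is X-linked, was at 143 to 220 CPM in females and 54.1 to 96.9 CPM in males. *Cnih2* was at 21.6 to 48.9 CPM in females and 105.2 to 145.2 CPM in males, and *Dlg4* at 127 to 190.5 CPM in females and 242 to 377 CPM in males. The groups of these 4 genes did not overlap. Females differed from males by 1.17 ± 0.18 log2 in *Gria2* (adjusted p = 0.0017), 1.199 ± 0.214 in *Gria3* (adjusted p = 0.0039), -1.61 ± 0.25 in *Cnih2* (adjusted p = 0.0020) and -0.93 ± 0.20 in *Dlg4* (adjusted p = 0.0094; SE, limma, n = 4 each). The 4 of 8 members called stand beside 17.4% of all genes. In B6 nPM mice, which are other animals, the same 4 genes had the same signs, at 0.82, 0.68, -0.50 and -0.95 log2. On the scaled log2 levels used for the test, the groups overlapped in *Cnih2* only. On the deposited CPM those of *Gria3* overlapped too, with female 52 at 101.5 and male 12 at 102.9 CPM. In these nPM mice 0 of 8 members were called beside 0.0958% of all genes.

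**Figure D5:**
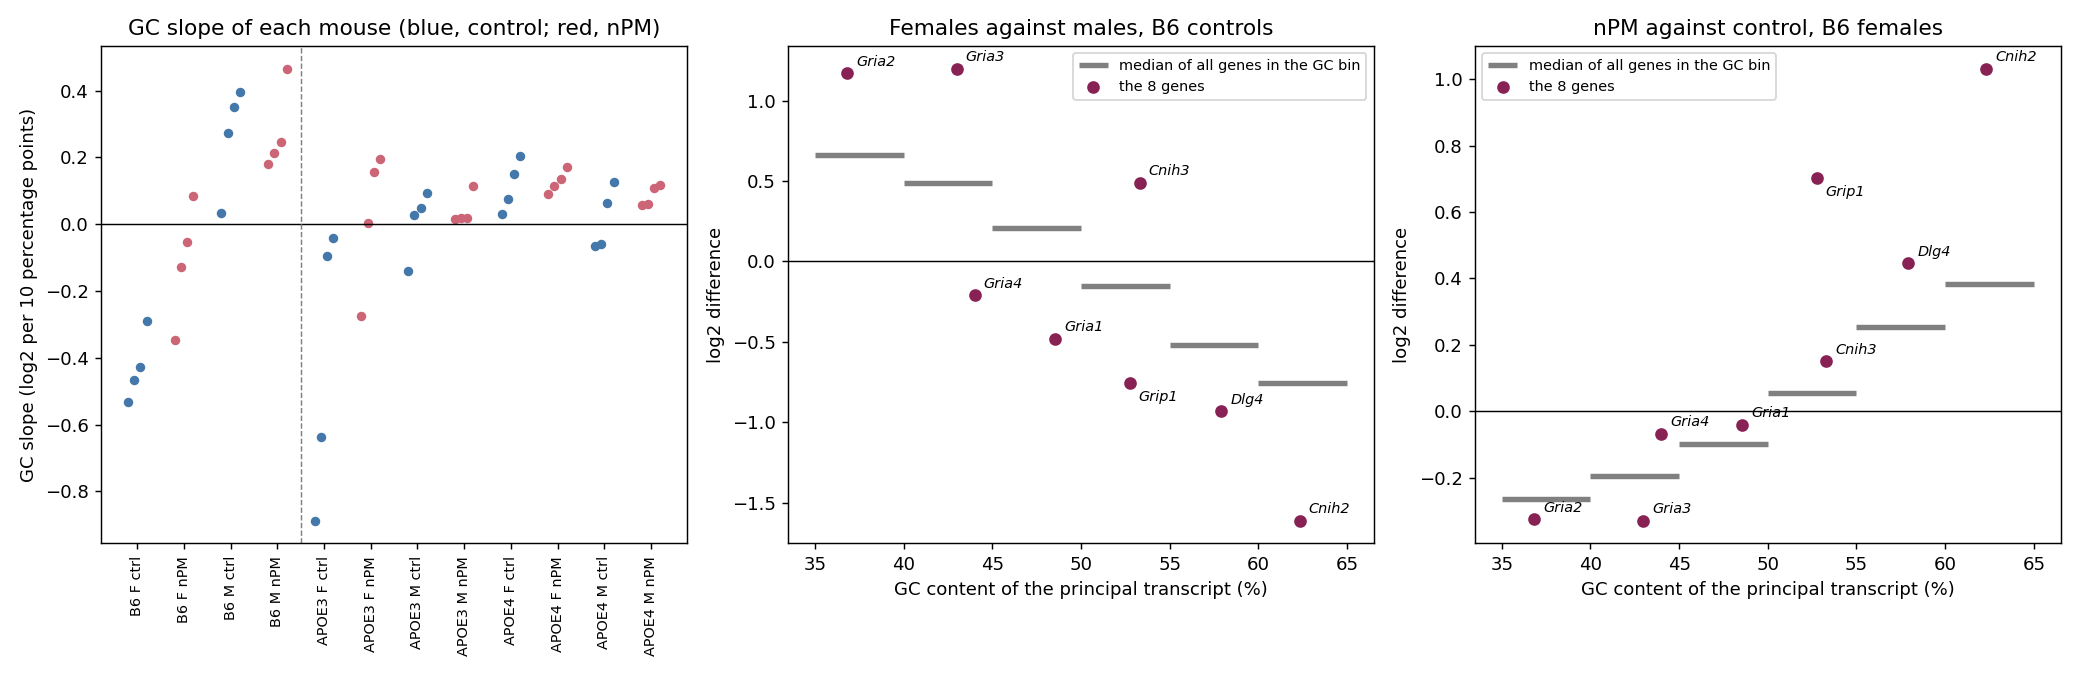
Left, the GC slope of each mouse (y axis, log2 per 10 percentage points of GC) in the 12 groups; middle and right, the log2 difference of the 8 genes (points, y axis) against the GC content of their transcripts (x axis, %) for B6 female against male controls and for nPM against control B6 females, with the median of all genes in each GC class as a grey line. *Cnih2*, the member with the most GC, is at the far end in both comparisons. In the sex comparison *Cnih3* at 0.49, *Gria1* at -0.48 and *Gria4* at -0.21 lie on the other side of 0 from their classes. The medians of those classes are -0.155, 0.207 and 0.487. Both differences of *Cnih2*, -1.61 and 1.03, are farther from 0 than the medians of its class, -0.75 and 0.38.

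The GC slope separated the sexes in the same mice, from -0.534 to -0.290 in female controls and from 0.0326 to 0.396 in male controls. Over all genes the female level was higher by a median of 0.66 log2 under 40% GC (655 genes) and lower by 0.75 at 60% GC or more (median -0.75, 661 genes). Across the 8 members the correlation of the difference with GC content was -0.835 (Pearson's r, a description over genes of the same libraries), and across 15350 genes it was -0.553. With the GC slope as a covariate none of the 4 members passed, with differences of 0.58, 0.62, -0.60 and -0.35 log2, and 0 of 15462 genes were called. Since the slopes of the sexes do not overlap, the slope and the sex of B6 controls cannot be told apart. Summed neuron markers were 6051 to 6488 CPM in B6 female controls and 2375 to 4895 CPM in B6 male controls, and astrocyte markers 3349 to 3744 and 1601 to 2770 CPM. Males were higher in markers of oligodendrocyte precursors (112 to 126 CPM in females, 135 to 247 in males) and endothelium (72.2 to 107.6 and 108.9 to 136.8). The other sets overlapped, among them excitatory (1016 to 1204 and 207 to 1529 CPM) and inhibitory neurons (470 to 663 and 463 to 1055). The part of these cells was not tested.

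In *APOE*-TR mice *Cnih2* was higher in females, the opposite direction to B6. The members called at a 5% false discovery rate were 5 of 8 in APOE3 controls (44% of all genes), 2 in APOE3 nPM mice (18.6%), 3 in APOE4 controls (19.8%) and 1 in APOE4 nPM mice (20.8%). *Cnih2* was higher in females by 0.65, 0.45, 0.35 and 0.35 log2 in these 4 comparisons, called in all except APOE4 controls (adjusted p = 0.0116, 0.0152, 0.124 and 0.0026). In APOE4 nPM mice its 4 females had 74.6 to 89.1 CPM and its 4 males 62.6 to 69.5 CPM. *Grip1* had lower values in females by -0.58, -0.33, -0.27 and -0.16 log2, called in both APOE3 comparisons. *Gria3* was lower in females by -0.38 log2 in APOE3 controls and by -0.23 in APOE4 controls, both called, and was at -0.15 and -0.06 in the nPM mice, neither called. *Gria1* was called in the controls of both lines (-0.61 and -0.31), *Gria2* in APOE4 controls (-0.26) and *Gria4* in APOE3 controls (-0.28), all lower in females. *APOE*-TR females had lower length slopes than males, -0.802 to 0.0675 against 0.0796 to 0.164 log2 per doubling, as well as fewer reads, and neither overlapped. Summed endothelial markers were also lower in *APOE*-TR females, 54.4 to 89.9 CPM against 106 to 177 CPM. The part of length, depth and endothelial cells in these differences was not tested. After mice 61 and F6 were left out, *Cnih2* was 0.87 log2 higher in female than in male APOE3 controls (adjusted p = 0.000189), and *Gria1*, at -0.23 (adjusted p = 0.142), no longer passed. *Gria3* (-0.35), *Gria4* (-0.34) and *Grip1* (-0.38) stayed past the threshold. The share of all genes called in this fit is not reported here. Of the gene lists described below, 11 of 27 receptor partners passed it. So did 7 of 13 postsynaptic density genes and 8 of 13 other ionotropic glutamate receptor genes.

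The other proteins of the receptor were read from 3 lists. Of 27 partners of AMPA receptors (transmembrane regulatory proteins, other auxiliary and biogenesis proteins, trafficking proteins, neuronal pentraxins and RNA editing enzymes), 2 rose with nPM over all mice at a p under 0.005 and none fell, where 1.49% of all genes passed in either direction. They were *Gsg1l*, an auxiliary subunit (0.24 ± 0.08 log2; n = 48; limma p = 0.0028), and *Nptxr*, the pentraxin receptor that clusters AMPA receptors at synapses (0.53 ± 0.18; p = 0.0047), with SE and both with an adjusted p of 0.302. Neither count remained without mice 61 and F6 or with the GC slope as a covariate, 0 of 27 passing in each. The median of the 27 partners was 0.10 log2, beside -0.01 over all genes. In the 6 separate pairs no partner passed for nPM, but with the GC slope as a covariate *Shisa7* and *Nptxr* passed in APOE4 females, both higher. Of all genes, 84 passed there with the covariate, in place of 44. Between alleles in control females *Nptx1* was the 1 partner past 0.005 (1.02 ± 0.27 log2 higher in APOE4, SE; limma adjusted p = 0.0766), where 974 of 16416 genes were. None of the 27 passed there with the GC slope as a covariate, and 3 did without mice 61 and F6 (*Shisa6*, *Nptx1* and *Adar*, all higher in APOE4). The share of all genes past 0.005 without those mice is not reported here. *Cpt1c*, a protein of receptor biogenesis, was the 1 partner whose nPM response differed between the sexes (0.39 ± 0.11 log2 above in females, SE, n = 48; p = 0.0014, adjusted p = 0.215). Neither with the GC slope as a covariate nor without mice 61 and F6 did any of the 27 pass.

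Of 13 proteins of the postsynaptic density, none passed 0.005 for nPM over all mice. *Camk2b*, a kinase subunit, was the 1 that rose in B6 females (0.56 ± 0.14 log2), and the scaffolds *Dlgap2* and *Shank1* the 1 each in B6 males (1.36 ± 0.38) and in APOE4 males (0.24 ± 0.06; SE from limma). Adjusted p was 0.383, 0.999 and 0.955, and 1.19%, 0.24% and 0.178% of all genes passed. With the GC slope as a covariate *Dlgap2* remained past 0.005 and *Camk2b* and *Shank1* did not. Of all genes, 35 passed in B6 males with the covariate, in place of 37. Between alleles in control females none of the 13 passed with all mice, and *Shank2*, *Dlgap2* and *Nlgn2* did without mice 61 and F6. For that fit, too, the share of all genes is not reported here. Of 13 other ionotropic glutamate receptor genes, *Grin1*, the obligatory NMDA receptor subunit, was the 1 past 0.005 for nPM over all mice (0.42 ± 0.12 log2; SE, n = 48; p = 0.0011, adjusted p = 0.302) and in B6 females (1.03 ± 0.25). Over all mice it remained past it without mice 61 and F6, and none of the 13 did with the GC slope as a covariate. With that covariate *Grin1* was not past it in B6 females either, where *Grin2c* was instead, lower with nPM, and *Grin2a* and *Grin2b* passed in APOE4 males, both higher. Of all genes, 149 passed with the covariate in B6 females and 50 in APOE4 males, in place of 176 and 30.

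Likeness between genes was measured across the 32 *APOE*-TR mice after subtracting group means, over 15971 genes. *Gria1* was most like *Scn3b* (Pearson's r = 0.951), *Slc7a14* (0.912) and *Dpp6* (0.901). *Gria2* was most like *Pbrm1* (0.919), *Zmym5* (0.871) and *Pik3c2a* (0.835), *Gria3* most like *Agfg1* (0.742), *Agtpbp1* (0.733) and *Ptprk* (0.723), and *Gria4* most like *Nek1* (0.860), *Sun1* (0.819) and *Pde5a* (0.790). Without mice 61 and F6 these 12 values lay between 0.724 and 0.902. Among the members, the highest was *Gria1* with *Grip1* (0.719, and 0.560 without the 2 mice) and the lowest *Gria2* with *Dlg4* (-0.698, and -0.708 without them). *Gria1* with *Dlg4* was at 0.713 with all mice and at 0.07 without the 2. The points share libraries, whose depth and base composition differ, so these are descriptions.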

How the data were processed

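Total RNA of perfused mouse cerebral cortex was made into stranded poly(A) libraries and sequenced single-end on a NextSeq500. Per the labels and the paper's methods, the authors aligned reads with TopHat2 2.0.8b to mm10 (GRCm38) and counted unique reads per RefSeq gene in Partek Flow. They deposited CPM, in which a gene without reads holds the lowest value of its column. Reads behind a value were estimated from that step; among *APOE*-TR mice, 96.1% to 97.1% of low values were whole multiples within 0.1 steps, and counts recovered from them served for alternatives. In B6 mice the share was 87.7% to 98.4%, and no count test was run.

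Values were scaled by TMM, and log2(CPM + 0.5) was fitted with limma 3.58.1 (empirical Bayes with trend; R 4.3.3) across all genes above the no-read value in every mouse of the fit, with each pair of groups fitted alone. Fold changes are on that log2(CPM + 0.5) scale. The planned edgeR test needs counts and was run only as an alternative. P-values were adjusted by Benjamini-Hochberg over all genes tested. Exact permutation tests used all 70 labelings of 4 against 4 and were two-sided. Scripts were tested on simulated data.

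Groups came from the sample titles. The column named F6 matched no animal number and was used as an unnumbered APOE3 female control. The 8 members, the gene lists and their tests were chosen with earlier results of these data known. Besides the members, the text names the list genes past p 0.005, at most 4 a comparison, and the 3 genes most correlated with each subunit. Sequences and transcript lengths came from GENCODE M21 on GRCm38, and the GC slopes from the 99.4% (B6) and 97.3% (*APOE*-TR) of genes of at least 5 CPM that matched it (pandas 2.3.3, Biopython 1.88). The GC covariate, the left-out pair of mice and the sex comparisons were added after seeing the data.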

Additional observations from a re-analysis of the deposited data

Results flagged for a closer look

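Of 96 sets of 4 mice (8 genes in 12 groups), 6 held a mouse whose gap to the next one took a larger part of the range of its group than Dixon's limit at 95% allows. Chance alone gives about 1 in 20. That part was 0.846 for *Cnih2* in B6 female control 42, the lowest of its group, 0.862 for *Gria1* in APOE4 male control 3, the highest, 0.873 for *Gria2* in APOE4 female control 21, the lowest, 0.869 for *Gria3* in APOE3 male control 63, the highest, 0.840 for *Gria4* in APOE3 nPM female 55, the lowest, and 0.845 for *Grip1* in B6 nPM male 10, the lowest. Mouse 42 had the lowest GC slope of the B6 mice, -0.534, and without it the nPM difference of *Cnih2* in B6 females was 0.77 log2 and no longer past the threshold in limma.

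The nPM response of *Grip1* differed between the sexes by 0.64 log2 in the test of that difference, with the B6 values resting on as few as 17 reads in a mouse.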

How the results depend on the processing

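Over the settings fixed at the outset, 2954 of 2976 member values kept their side of the threshold, and none that was called changed sign; 157 uncalled values did. Over the settings added later, 962 of 1032 did so, 56 lost and 12 gained a call, 2 reversed, and 86 uncalled values changed sign. In B6 females, 0 members passed without TMM or with the GC covariate, and leaving out 1 mouse gave 0 to 2: *Cnih2* lost its call without control 40, 41 or 42 or nPM mouse 52 or 53, with 0.76 to 1.19 log2 over the 8 fits. DESeq2 called 1 member for nPM in APOE3 females, 1 in APOE4 females and 1 between alleles in control females. Over all genes it called 467 for nPM in APOE3 females and 85 in APOE4 females, in place of 110 and 44. A variance shared by all groups of a table called 1 for nPM in APOE3 females and 3 between alleles in control females, with 5008 and 8831 genes called in place of 110 and 38; DESeq2 called 4155 in the latter. The allele count in control females was 1 without mice 61 and F6, and 0 to 1 with 1 mouse left out (*Gria1* without mouse 52). For these fits the share of all genes called is not reported here. The sex difference of the nPM response had 0 members with the GC covariate, in B6 mice alone or without mice 61 and F6, 2 in *APOE*-TR mice alone with the GC covariate, and 0 to 1 with 1 mouse left out (*Grip1* at 0.54 to 0.71; lost without B6 female control 41 or 43, B6 male control 0 or 3, B6 nPM female 51, B6 nPM male 10 or APOE4 female control 7). *Gria3* had the opposite sign in *APOE*-TR mice alone, 0.20, and there with the GC covariate, 0.19. Of the sex comparisons, B6 controls had 0 members with the GC covariate and 4 in every fit without 1 mouse; B6 nPM mice had 2 with shared variance and 0 to 1 (1 without B6 nPM female 52); APOE3 controls 3 without TMM, 3 with the GC covariate and 2 to 5 (under 4 without male control 51, 55 or 63 or female F6); APOE3 nPM mice 4 with the GC covariate and 0 to 2 (0 without female 70, 1 without female 55 or male 53, 56, 58 or 76); APOE4 controls 0 to 3 (0 without male 32, 1 without male 21 or female 7, 21 or 26); APOE4 nPM mice 0 with shared variance and 1 to 2 (2 without female 08). All genes called changed as well. They were 6760 of 16629 in place of 3086 in APOE3 nPM mice with the GC covariate, and 167 in place of 14 in B6 nPM mice with shared variance. In APOE3 controls they were 7218 without TMM and 4361 with the GC covariate, in place of 7246. APOE4 nPM mice had 759 with shared variance in place of 3461. The cause of these changes was not tested. Count tests were not run on B6 mice, where 87.7% to 98.4% of low values were whole multiples of the step, or on all 48 mice. No paired analysis was possible because groups compared share at most 1 animal number, and that number names different animals. Depth limits *Grip1* in B6 most.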
